A study of Saccharomyces cerevisiae with 4 samples.

Results

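The ribosome occupancy of 161 ORFs whose systematic names carry a suffix (a hyphen and a letter, as in YBR121C-A) was examined in meiotic budding yeast with and without the DEAD-box RNA helicase gene *DBP1*. The deposited footprint table holds 5371 ORFs, of which 179 have such a name. The 7 cytosolic ribosomal protein genes among these were left out, as were 11 ORFs excluded by name, which left 161 suffixed ORFs and 5210 other ORFs. In yeast, a suffix is given to an ORF that was added to the genome annotation after its neighbors had been numbered. Most such ORFs are short, and were passed over at first because a short reading frame can easily occur by chance. Their products include many small membrane and mitochondrial proteins, subunits of larger complexes, and proteins without a known role. Sequencing of ribosome-protected mRNA fragments (footprints) reports on their translation directly.

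Footprints came from 2 *dbp1Δ* libraries, in which Cas9 had removed the *DBP1* ORF from both chromosome copies without a marker, and from 2 wild-type libraries. The labels give SK1 cells collected 6 h after transfer to sporulation (SPO) medium and treated with cycloheximide before freezing. Both genotypes were in the same diploid SK1 background, which carries *ho::LYS2*, *lys2*, *ura3*, *his3::hisG* and *trp1::hisG*. Libraries carry the numbers 1 and 2 in each genotype, and the series description calls them biological replicates. Values are footprint RPKM, the reads of an ORF scaled by its length and by the mapped reads of the library, which allows levels to be compared between ORFs of different length.

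The steps of the RPKM values placed the depth at 5789142 and 4971127 reads for *dbp1Δ* replicates 1 and 2, and at 5294763 and 4619182 reads for wild-type replicates 1 and 2. *DBP1* itself was at 0.578 and 0.449 RPKM in the *dbp1Δ* libraries, against 164 and 147 RPKM in the wild-type libraries. All 12 genes of a meiotic marker list were found, at 54.85 to 4219 RPKM, and none was listed at 0 RPKM. The replicates of *dbp1Δ* were not alike in these markers. The 6 early genes (*HOP1*, *RED1*, *ZIP1*, *REC8*, *DMC1* and *SPO11*) were all highest in *dbp1Δ* replicate 1 and all lowest in *dbp1Δ* replicate 2, with medians of 258.7 and 150.7 RPKM, against 191.5 and 169.3 RPKM in the wild-type libraries. Of the 6 middle genes, 4 were lowest in *dbp1Δ* replicate 1. The part of this difference between the *dbp1Δ* libraries in the results below was not tested.

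Suffixed ORFs were short, and their median level was above that of the other ORFs as a whole but not above that of other short ORFs. In the R64 annotation of the S288C strain, 105 of the 161 have a symbol, 33 have a systematic name only and 23 have no entry. Among the 137 tested ORFs with an annotated length, the median length was 270 nt, against 1284 nt for the other ORFs. Their median level over the 4 libraries was 75.32 RPKM, against 32.66 RPKM for the other ORFs. Among ORFs under 300 nt the order was turned round, with a median of 115.2 RPKM for 90 suffixed ORFs and 293.1 RPKM for 52 other ORFs. The other ORFs hold the 7 cytosolic ribosomal protein genes and the 11 ORFs left out of the group. They also hold the ribosomal protein genes without a suffix. The part of these genes in this order was not tested. The ORFs with a symbol had a median of 107.8 RPKM, those with a systematic name only 46.24 RPKM, and those without an entry 31.92 RPKM. Of the 161, 13 were below 10 RPKM, 79 lay between 10 and 100 RPKM, 58 between 100 and 1000 RPKM and 11 at 1000 RPKM or more. No suffixed ORF was listed at 0 RPKM in any library.

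**Figure D1:**
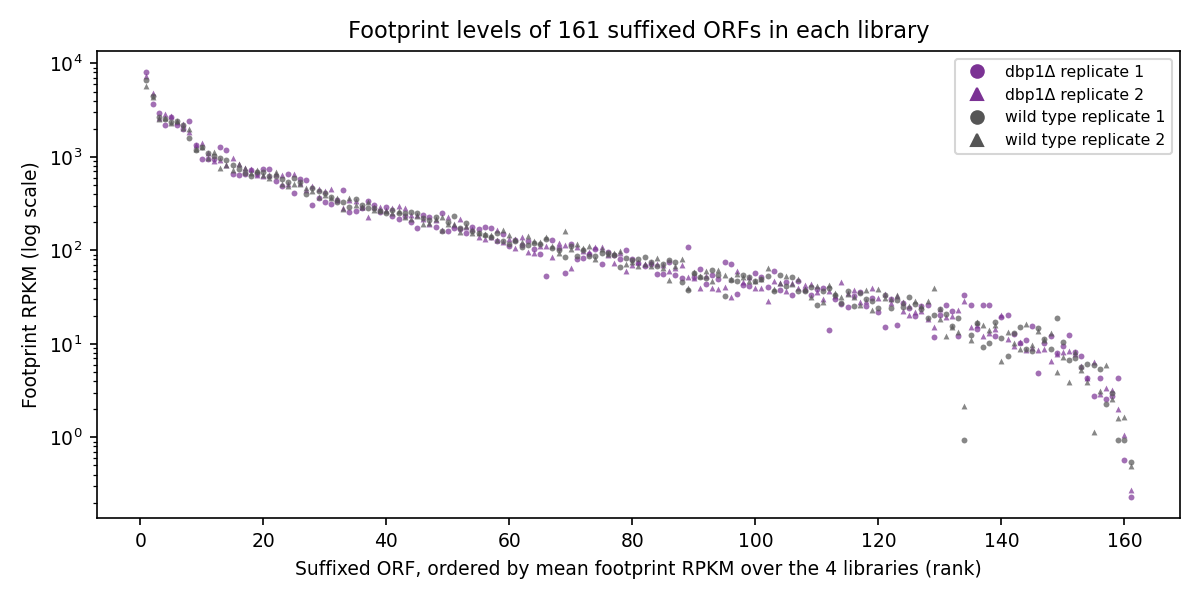
Footprint RPKM (log scale) of each of the 161 suffixed ORFs in the 2 *dbp1Δ* and 2 wild-type libraries, ordered by the mean over the 4 libraries. The points of an ORF lie close together at high levels and spread at low ones, and a single ORF, YPL119C-A, has its wild-type points far under its *dbp1Δ* points.

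Read depth was uneven within the group. Whole reads could be recovered for 111 of the 160 tested suffixed ORFs, with a median of 122 reads per library, against 194.9 reads for 4498 other ORFs. In 3 suffixed ORFs, YCR087C-A, YER145C-A and YPL119C-A, a library held fewer than 3 reads. Overlap also limits some values, and could not be checked for the 23 suffixed ORFs without an entry in R64. By R64, 6 suffixed ORFs overlap a gene on the same strand (*NHP6B*, YDL022C-A, YGR109W-B, YGR161C-C, YGR161C-D and YPR158W-B), so that their reads may be shared, and 4 overlap a gene on the other strand only (*KTI11*, *ADF1*, YER145C-A and *DPC13*).

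The highest level belonged to *SPO24*, a small protein gene of sporulating cells. It was at 8096 and 7340 RPKM in *dbp1Δ* cells, against 6575 and 5735 RPKM in wild-type cells, and ranked 15 among all ORFs of the table. Both *dbp1Δ* values were above both wild-type values, while the replicates of each genotype were themselves apart. YGR161W-C, for which R64 gives no symbol, followed with 3723 and 4844 RPKM in *dbp1Δ* cells and 4434 and 4385 RPKM in wild-type cells. Its *dbp1Δ* values lay on either side of the wild-type pair. YBR085C-A, also without a symbol, was at 2928 and 2605 RPKM in *dbp1Δ* cells, against 2665 and 2559 RPKM in wild-type cells, and YDL007C-A was at 2206 and 2853 RPKM in *dbp1Δ* cells, against 2556 and 2589 RPKM in wild-type cells. In both ORFs the genotypes overlapped. *CMI8* was at 2664 and 2734 RPKM in *dbp1Δ* cells, against 2363 and 2300 RPKM in wild-type cells, with replicates close to each other and the genotypes apart. In all, 8 suffixed ORFs were among the 100 ORFs with the highest mean RPKM.

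To determine which suffixed ORFs differed between the genotypes, log2(RPKM + 0.5) was fitted with limma over the 5338 ORFs whose mean reached 1 RPKM, 160 of them suffixed. The ORF that missed this filter, YPR158W-B, was at 0.2322 and 0.2704 RPKM in *dbp1Δ* cells and 0.544 and 0.499 RPKM in wild-type cells. At an adjusted p under 0.05, 1 suffixed ORF rose in *dbp1Δ* cells and 0 fell, where the background over all tested ORFs was 0.0187% in each direction, a single ORF each. At an unadjusted p under 0.05 the count was 10 suffixed ORFs (6.25%, against 1.67% of all tested ORFs), 6 of them higher and 4 lower in *dbp1Δ* cells. The fitted differences of the group were centered as those of other ORFs were. The median log2 fold change, *dbp1Δ* over wild type, was -0.04 for the suffixed ORFs and -0.03 for the others. The suffixed ORFs spread more widely, with a median absolute log2 fold change of 0.16, against 0.13 for the others. By class this median was 0.14 with a symbol, 0.18 with a systematic name only and 0.30 without an entry in R64. The suffixed ORFs also had fewer reads, and the part of depth in this spread was not tested.

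**Figure D2:**
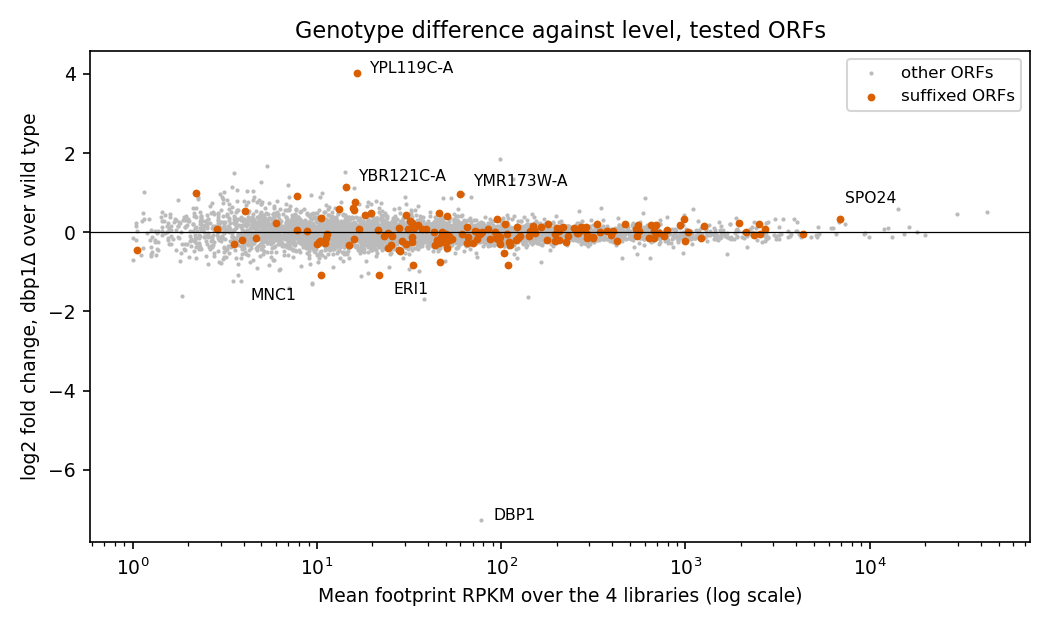
Log2 fold change of log2(RPKM + 0.5), *dbp1Δ* over wild type, against the mean footprint RPKM over the 4 libraries (log scale) for the tested ORFs, with 160 suffixed ORFs in orange and the other 5178 in gray. YPL119C-A stands alone at 4.02, and most suffixed ORFs lie near 0.

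The ORF that rose was YPL119C-A, which by R64 is next to *DBP1* on the same strand and has no symbol. According to the paper, the Cas9 deletion left a transcript holding just the untranslated regions of *DBP1*, with translation of an ORF not translated before. The paper places that ORF in the 3′ untranslated region. Whether it is YPL119C-A was not tested. YPL119C-A was at 33.5 and 29.0 RPKM in *dbp1Δ* cells, against 0.940 and 2.15 RPKM in wild-type cells. At the R64 length less 3 nt, these values are 39 and 29 reads in *dbp1Δ* cells, against 1 and 2 reads in wild-type cells. Wild-type occupancy was thus under the floor of 3 reads in both libraries. The ratio of the reads per library depth was 20.9, with an exact 95% counting interval of 6.85 to 104, and the fitted log2 fold change was 4.02 ± 0.33 (SE, 2 libraries per genotype, limma adjusted p = 0.0054). Without *dbp1Δ* replicate 1 the adjusted p became 0.0924, and with limma-voom on reads estimated from the RPKM values and rounded it became 0.209.

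The other suffixed ORFs with the largest rises did not pass the test, all with an adjusted p of 1.0 in limma. YBR121C-A, without an entry in R64, was at 19.2 and 20.3 RPKM in *dbp1Δ* cells, against 11.4 and 6.56 RPKM in wild-type cells (log2 fold change 1.14 ± 0.28 SE). The ORF that shares its number on the same strand, *GRS1*, which encodes glycyl-tRNA synthetase, did not follow it, with 37.0 and 21.6 RPKM in *dbp1Δ* cells and 21.5 and 25.7 RPKM in wild-type cells. The *dbp1Δ* pair of YBR121C-A was tight, whereas its wild-type pair was 0.76 apart on the log2 scale. *MIN9* was at 12.3 and 8.38 RPKM in *dbp1Δ* cells and 6.75 and 3.87 RPKM in wild-type cells, from 12 and 7 reads against 6 and 3 reads. YCR087C-A rested on fewer still, with 10 and 4 reads in the *dbp1Δ* libraries and 2 and 3 reads in the wild-type libraries. For both ORFs the counts were too small for the difference to be told from counting error at this depth.

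YMR173W-A was the rise with the largest contribution from a single library. It was at 109.9 and 52.2 RPKM in *dbp1Δ* cells, against 37.6 and 39.4 RPKM in wild-type cells (log2 fold change 0.97 ± 0.31 SE, limma adjusted p = 1.0). *dbp1Δ* replicate 1 was far above the other libraries, and *dbp1Δ* replicate 2 was above the wild-type pair by less. The ORF that shares its number on the same strand is *DDR48*, a DNA damage and stress-induced gene, which was at 112 and 56.1 RPKM in *dbp1Δ* cells and 38.8 and 41.4 RPKM in wild-type cells. The log2 ratio of the suffixed ORF to *DDR48* was between -0.10 and -0.03 in all 4 libraries. Of 140 pairs of a suffixed ORF with an ORF of the same number, this was the only pair whose mean log2 ratio and whose SD over the libraries were both under 0.1, a limit chosen after the values were seen. *COX19* and *DPS1*, also of 1 number and strand, missed that limit narrowly, with a mean of 0.0073 and an SD of 0.103. Being alone under the limit therefore does not set YMR173W-A apart, and shared reads in other pairs were not tested. YMR173W-A has no entry in R64, so its span and any reads it shares with *DDR48* were not determined. Its values may therefore not be independent of that gene, although the counts given here treat it as a separate ORF.

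**Figure D3:**
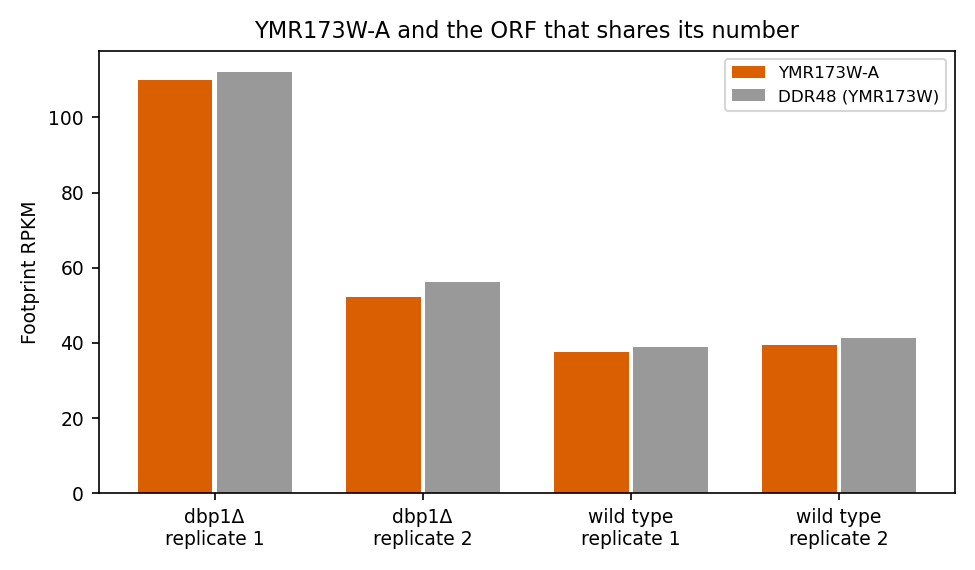
Footprint RPKM of YMR173W-A (orange) and of *DDR48* (gray), the ORF of the same number and strand, in each library. The bars are nearly equal in every library, and both ORFs are highest in *dbp1Δ* replicate 1, at 109.9 and 112 RPKM.

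The falls were likewise short of the test, each with an adjusted p of 1.0 in limma. *ERI1*, which encodes a subunit of the endoplasmic reticulum (ER) enzyme that begins GPI anchor synthesis, was at 11.8 and 15.1 RPKM in *dbp1Δ* cells, against 20.6 and 39.8 RPKM in wild-type cells (log2 fold change -1.08 ± 0.31 SE). The genotypes did not overlap, but the wild-type libraries were nearly 2-fold apart, and the reads were 10 and 11 in *dbp1Δ* cells against 16 and 27 in wild-type cells. *MNC1* was at 4.90 and 8.56 RPKM in *dbp1Δ* cells and 14.7 and 13.8 RPKM in wild-type cells (log2 fold change -1.08 ± 0.30 SE), from 4 and 6 reads against 11 and 9 reads. YHR050W-A, without a symbol, was at 40.5 and 29.0 RPKM in *dbp1Δ* cells, against 52.7 and 64.4 RPKM in wild-type cells, and its log2 fold change was -0.76 ± 0.22 SE. *SMF2*, which has the same number and encodes a metal ion transporter, had overlapping genotypes, with 55.5 and 72.6 RPKM in *dbp1Δ* cells and 63.5 and 65.6 RPKM in wild-type cells.

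In the remaining falls the difference came mainly from *dbp1Δ* replicate 1. *LSO1*, which is induced by iron deprivation, was at 52.9 and 110.5 RPKM in *dbp1Δ* cells, against 131.9 and 139.4 RPKM in wild-type cells (log2 fold change -0.82 ± 0.30 SE), and had 68 and 122 reads against 155 and 143 reads. Its relative *LSO2*, a ribosome-associated factor of quiescent cells, was chosen after its values were seen. It was at 173.5 and 186.5 RPKM in *dbp1Δ* cells and 231.1 and 191.8 RPKM in wild-type cells. Both *dbp1Δ* values of *LSO2* were below both wild-type values, as in *LSO1*, but the nearest values of the genotypes were close. YFR052C-A, without an entry in R64, was at 14.04 and 36.8 RPKM in *dbp1Δ* cells, against 39.2 and 43.1 RPKM in wild-type cells (log2 fold change -0.84 ± 0.38 SE). The gene of the same number on the other strand, the proteasome lid gene *RPN12*, was highest in the library where YFR052C-A was lowest, at 400 and 235 RPKM in *dbp1Δ* cells and 297 and 283 RPKM in wild-type cells.

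**Figure D4:**
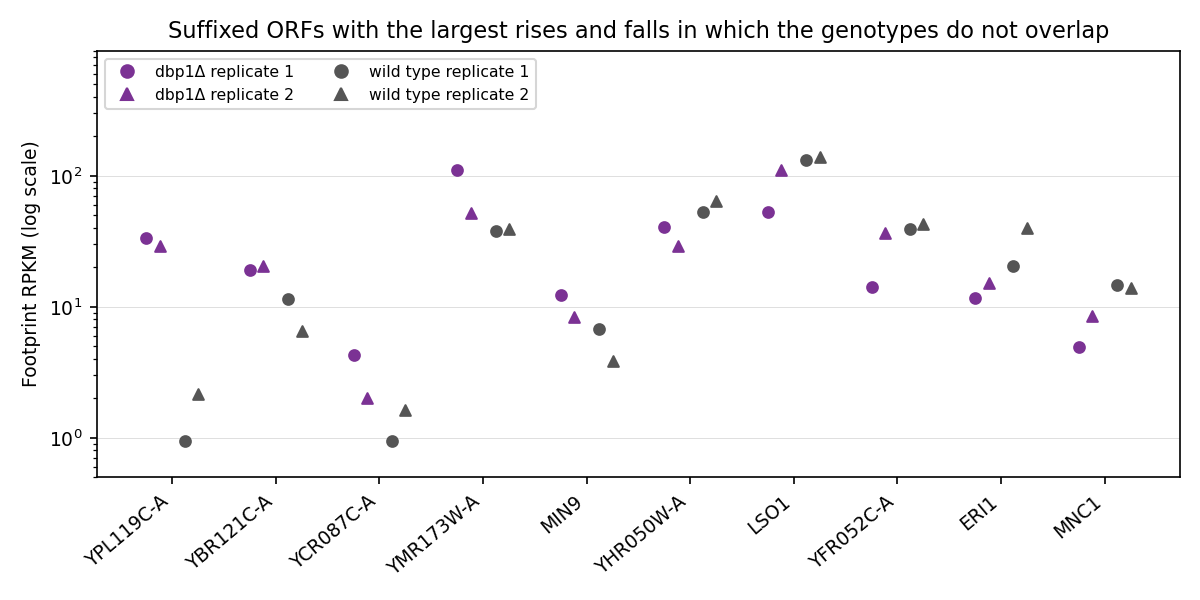
Footprint RPKM (log scale) in each library of the suffixed ORFs with the 5 largest rises and the 5 largest falls among those whose genotypes do not overlap, ordered by log2 fold change, *dbp1Δ* in purple and wild type in gray. The gap between genotypes in YPL119C-A is far wider than that between its replicates, whereas in *LSO1*, YFR052C-A and YMR173W-A *dbp1Δ* replicate 1 lies apart from *dbp1Δ* replicate 2.

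Counted without a test, suffixed ORFs whose genotypes did not overlap were about as frequent as among all ORFs. Both *dbp1Δ* values were above both wild-type values in 21 suffixed ORFs (13.1%, background 9.59%) and below both in 27 (16.9%, background 15.3%). Genotype means 2-fold or more apart after adding 0.5 RPKM were found in 6 suffixed ORFs. The 4 that were higher in *dbp1Δ* cells were YPL119C-A, YBR121C-A, YMR173W-A and YCR087C-A (2.5%, background 0.412%), and the 2 that were lower were *MNC1* and *ERI1* (1.25%, background 0.15%). Apart from YMR173W-A, all of these had a mean under 30 RPKM.

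The exact 95% intervals of the recovered reads gave a view of the same differences that rested on counting error alone. Among 111 suffixed ORFs, both *dbp1Δ* intervals were above both wild-type intervals in 3 (2.7%, background 0.217% of 4609 ORFs), and both were below in 0 (background 0.304%). These 3 were *SPO24*, *CMI8* and YPL119C-A. YPL119C-A entered this count through a length 3 nt shorter than in R64. Such a change was tried for suffixed ORFs alone, so the share and its background do not rest on quite the same rule. The replicates of *SPO24* had intervals apart from each other in both genotypes. Those of *CMI8* did not, with 2822 and 2487 reads in the *dbp1Δ* libraries and 2290 and 1944 reads in the wild-type libraries. In limma, whose error includes the spread between replicates, *CMI8* had a log2 fold change of 0.21 ± 0.16 SE and *SPO24* one of 0.33 ± 0.18 SE, both with an adjusted p of 1.0. The intervals take each RPKM total as exact, and do not cover differences between cultures.

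The spread between replicates was then described for the whole group. The median absolute log2 gap between the *dbp1Δ* libraries was 0.33 over the suffixed ORFs, a 1.25-fold gap, and that between the wild-type libraries was 0.17, a 1.13-fold gap. For the other ORFs the medians were 0.31 and 0.12. The *dbp1Δ* gap was the larger in 111 of 160 suffixed ORFs and in 3809 of 5178 other ORFs. At a gap of 2-fold or more, 7 suffixed ORFs were found in the *dbp1Δ* pair (4.38%, background 4.16%) and 3 in the wild-type pair (1.88%, background 0.955%). The intervals of the reads were apart in 26 of 111 suffixed ORFs between the *dbp1Δ* libraries (23.4%, background 38.9%) and in 6 between the wild-type libraries (5.41%, background 6.01%). Such intervals are wider in ORFs with fewer reads, as the suffixed ORFs were.

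Replicate gaps of the suffixed ORFs narrowed as their reads increased, as they did in other ORFs. With a mean under 10 reads (7 suffixed ORFs), the median absolute log2 gap was 0.53 in the *dbp1Δ* pair and 0.67 in the wild-type pair. From 30 to 100 reads (33 ORFs) it was 0.32 and 0.27, and at 1000 reads or more (10 ORFs) it was 0.22 and 0.08. Other ORFs had gaps of 0.63 and 0.62 below 10 reads, 0.36 and 0.19 from 30 to 100 reads, and 0.29 and 0.06 at 1000 reads or more. In deeply read ORFs of either kind the wild-type gap thus became small, while the *dbp1Δ* gap stayed above 0.2. Short ORFs of both kinds had similar gaps. The 90 suffixed ORFs under 300 nt had median gaps of 0.34 in the *dbp1Δ* pair and 0.18 in the wild-type pair, and the 52 other ORFs under 300 nt had 0.32 and 0.16.

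**Figure D5:**
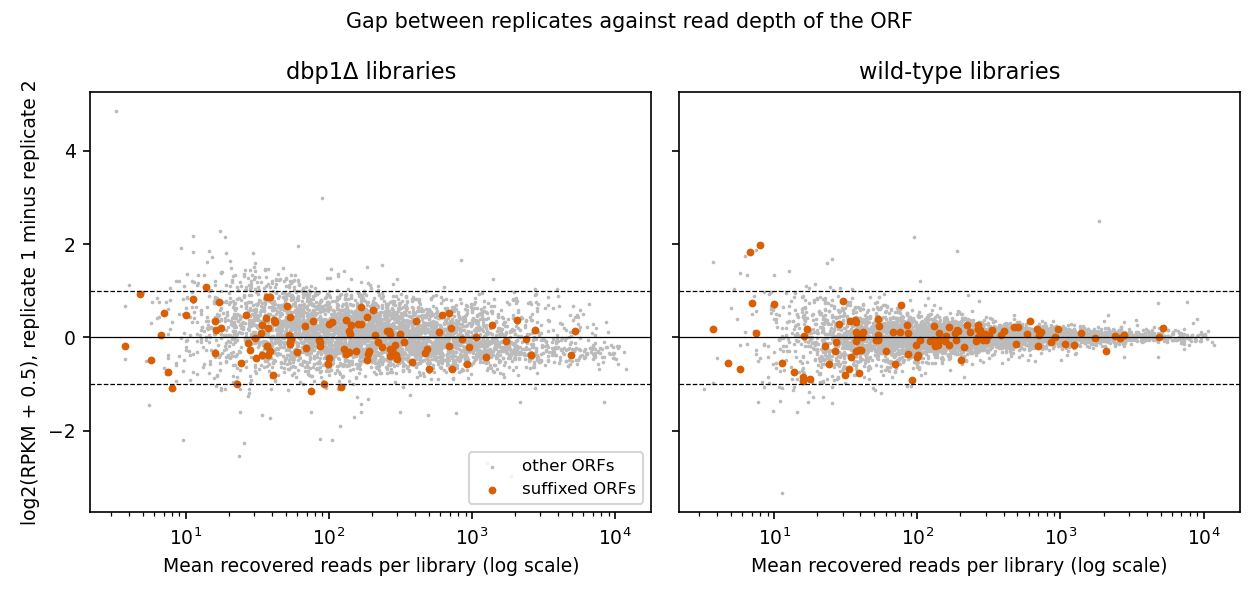
Difference of log2(RPKM + 0.5), replicate 1 minus replicate 2, against the mean recovered reads per library (log scale) in *dbp1Δ* (left) and wild type (right), with 111 suffixed ORFs in orange and 4498 other ORFs in gray, and 2-fold gaps as dashed lines. Gaps narrow as reads increase in both panels, and at 1000 reads or more the *dbp1Δ* points of suffixed ORFs stay wider (median absolute gap 0.22) than the wild-type points (0.08).

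The classes of suffixed ORFs differed in level and in noise. ORFs with a symbol had median gaps of 0.30 in the *dbp1Δ* pair and 0.14 in the wild-type pair. Those with a systematic name only had 0.34 and 0.24, and those without an entry in R64 had 0.36 and 0.19. The last class held 23 ORFs, and 3 of these had a *dbp1Δ* gap of at least 2-fold, against 3 of 105 with a symbol. The *dbp1Δ* gaps thus widened as the median level of the class fell, the wild-type gaps were widest in the middle class, and no test of the difference between classes was made.

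The largest gap in the *dbp1Δ* pair was that of YFR052C-A, described above, at -1.36 on the log2 scale. YPR169W-A, without an entry in R64, followed with 71.7 and 31.6 RPKM in *dbp1Δ* cells, against 48.7 and 49.0 RPKM in wild-type cells. The wild-type pair lay between the *dbp1Δ* values, and the log2 fold change between the genotypes was -0.04. The gene of the same number and strand, *JIP5*, a ribosome biogenesis gene, was likewise highest in *dbp1Δ* replicate 1 and lowest in *dbp1Δ* replicate 2, at a far lower level, with 4.14 and 1.28 RPKM in *dbp1Δ* cells and 1.996 and 1.983 RPKM in wild-type cells. *HBN1*, named for its similarity to bacterial nitroreductases, was at 15.2 and 34.3 RPKM in *dbp1Δ* cells, against 33.3 and 30.7 RPKM in wild-type cells. Here *dbp1Δ* replicate 1 alone was low. The other ORFs 2-fold or more apart in this pair were *LSO1*, YMR173W-A, *SOM1*, which encodes a subunit of the mitochondrial inner membrane peptidase, and YER145C-A. The ORFs 2-fold or more apart in the wild-type pair were YER145C-A, YLR146W-A and YPR108W-A. All 3 had means under 10 RPKM.

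Among suffixed ORFs averaging 10 RPKM or more, the widest wild-type gaps were those of *ERI1* (-0.94 on the log2 scale), YKL068W-A (-0.92) and YPL119C-A (-0.88). YKL068W-A was at 56.6 and 113.7 RPKM in *dbp1Δ* cells, against 84.3 and 160.2 RPKM in wild-type cells, from 58 and 100 reads against 79 and 131 reads. In both genotypes replicate 2 was the higher by nearly 2-fold, and the genotypes overlapped. *NUP100*, the nucleoporin gene of the same number and strand, was higher in replicate 1 of both genotypes, at 6.89 and 4.11 RPKM in *dbp1Δ* cells and 4.76 and 3.69 RPKM in wild-type cells.

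*dbp1Δ* replicate 1 held the highest value of the 4 libraries for 47 of the 160 suffixed ORFs (29.4%, against 38.1% of other ORFs) and the lowest for 61 (38.1%, against 35.8% of other ORFs). *dbp1Δ* replicate 2 was highest for 39 (24.4%, against 21.2% of other ORFs) and lowest for 35 (21.9%, against 33.9%). Wild-type replicate 1 was highest for 29 (18.1%, against 20.6%) and lowest for 28 (17.5%, against 13.9%). Wild-type replicate 2 was highest for 45 (28.1%, against 20.1%) and lowest for 36 (22.5%, against 16.4%). The highest values of suffixed ORFs were thus almost as often in wild-type replicate 2 as in *dbp1Δ* replicate 1, unlike those of the other ORFs as a whole. Short ORFs were not counted apart in this way. Within the *dbp1Δ* pair, replicate 1 was the higher in 2829 of the 5178 other ORFs, but in 18 of the 52 under 300 nt. Among the 90 suffixed ORFs under 300 nt it was the higher in 41. The lowest values were most often in *dbp1Δ* replicate 1 in both. Between libraries, 14 and 15 suffixed ORFs were 2-fold or more apart between *dbp1Δ* replicate 1 and wild-type replicates 1 and 2, against 2 and 6 between *dbp1Δ* replicate 2 and the same libraries. Over the 5178 other ORFs these counts were 145 and 131 for *dbp1Δ* replicate 1, and 39 and 73 for *dbp1Δ* replicate 2. Over the suffixed ORFs, Pearson's r of log2(RPKM + 0.5) between 2 libraries was 0.967 to 0.986, lowest between *dbp1Δ* replicate 1 and wild-type replicate 1 and highest within wild type.

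Counts of calls moved when a *dbp1Δ* library was left out. A genotype with 1 library adds no spread of its own to the fit, so the lone library is assumed to vary like the wild-type pair, and the wide gap between the *dbp1Δ* libraries is not in the error. With *dbp1Δ* replicate 1 as the only mutant library, 20 suffixed ORFs passed an adjusted p of 0.05 (12.5%), 11 higher and 9 lower, against a background of 9.7% of all tested ORFs. With *dbp1Δ* replicate 2 as the only mutant library the count was 0. With the replicate number as a block it was 5 suffixed ORFs (3.12%, background 0.468%). Among the 20, *IGO2*, whose product inhibits a protein phosphatase in starved cells, was at 307.9 and 489.1 RPKM in *dbp1Δ* cells, against 466.0 and 431.7 RPKM in wild-type cells. *COX26*, which encodes a small protein of the respiratory supercomplexes, was at 1177 and 814.6 RPKM in *dbp1Δ* cells, against 917.5 and 809.1 RPKM in wild-type cells. In both genes, chosen after their values were seen, *dbp1Δ* replicate 2 was within or beside the wild-type values.

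Suffixed ORFs of known function were grouped by role into 6 lists. None of the 38 members changed past the threshold in limma (adjusted p = 1.0 throughout), and *ERI1* alone had an unadjusted p under 0.05. Mitochondrial protein import and inner membrane organization held 7 suffixed ORFs, all tested, with a median log2 fold change of -0.02. *TOM5*, a small subunit of the outer membrane translocase, was at 486.6 and 638.1 RPKM in *dbp1Δ* cells, against 584.9 and 514.5 RPKM in wild-type cells. *TIM9* and *TIM10* encode partners in the chaperone of the intermembrane space. *TIM9* was at 235.4 and 283.0 RPKM in *dbp1Δ* cells and 271.3 and 251.5 RPKM in wild-type cells. *TIM10* was at 68.5 and 70.7 RPKM in *dbp1Δ* cells and 85.1 and 71.2 RPKM in wild-type cells. The members of this chaperone thus differed in level by several fold in every library, and neither passed the test between genotypes. *MIM2*, needed for insertion of outer membrane proteins, had the highest fold change of the list, 0.22, and *MDM35*, a carrier of lipid transfer proteins, the lowest, -0.22. *TIM8*, of a further chaperone of that space, and *MIC10*, a subunit of the complex that shapes cristae, lay between. The 14 partner genes of this list without a suffix had a median of 0.02, and 0 were called.

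Cytochrome *c* oxidase assembly and twin cysteine proteins, together with *STF1*, which has neither role, formed a list of 8 suffixed ORFs (median log2 fold change -0.04, range -0.32 to 0.05). *COA3*, an assembly factor of the Cox1 subunit, was at 313.2 and 451.1 RPKM in *dbp1Δ* cells, against 375.8 and 364.1 RPKM in wild-type cells. *COX19*, a protein of copper delivery to the oxidase, was at 177.1 and 131.6 RPKM in *dbp1Δ* cells and 144.2 and 150.7 RPKM in wild-type cells. In both genes the wild-type values lay between the *dbp1Δ* values, but *COA3* was low and *COX19* high in *dbp1Δ* replicate 1. *CMC4*, with a mean of 43.6 RPKM, had the lowest fold change of the list. Over the list the median absolute gap was 0.42 in the *dbp1Δ* pair and 0.06 in the wild-type pair. The 11 partner genes, which include *INH1* and *STF2*, also of neither role, had a median of -0.17, and 0 were called.

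Kinetochore and chromosome segregation proteins included 5 suffixed ORFs, with a median log2 fold change of -0.10. *DAD3*, *DAD4* and *HSK3* encode small subunits of the DASH complex, which rings spindle microtubules. *HSK3* was the highest, at 549.3 and 655.8 RPKM in *dbp1Δ* cells, against 629.6 and 692.8 RPKM in wild-type cells. *DAD3* was at 201.9 and 240.5 RPKM in *dbp1Δ* cells, against 260.2 and 215.5 RPKM in wild-type cells. *DAD4* was at 105.4 and 120.2 RPKM in *dbp1Δ* cells, against 101.0 and 93.95 RPKM in wild-type cells. The order *HSK3*, *DAD3*, *DAD4* was therefore the same in all 4 libraries. *DAD4* was the only member of the list with both *dbp1Δ* values above both wild-type values (log2 fold change 0.21 ± 0.16 SE, limma adjusted p = 1.0). *MTW1*, a core kinetochore gene, had a fold change of -0.12, and *NBL1*, a subunit of the chromosomal passenger complex, one of -0.02. The 13 partner genes had a median of 0.04, and 0 were called.

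Splicing and Sm-like proteins comprised 5 suffixed ORFs, with a median log2 fold change of -0.07. *LSM3*, a subunit of the Lsm rings of mRNA decay and splicing, was at 307.6 and 294.1 RPKM in *dbp1Δ* cells, against 280.6 and 272.2 RPKM in wild-type cells. Its replicates were close, and the genotypes did not overlap (log2 fold change 0.12 ± 0.15 SE, limma adjusted p = 1.0). *SMX2*, an Sm ring gene, was at 90.3 and 97.1 RPKM in *dbp1Δ* cells and 86.8 and 110.7 RPKM in wild-type cells, with the genotypes interleaved. *YSF3*, *SUS1* and *MAK31*, which encode a splicing factor subunit, a shared subunit of the SAGA coactivator and the mRNA export complex, and an Sm-like subunit of an N-terminal acetyltransferase, had fold changes of -0.20, -0.09 and 0.11. The 16 partner genes had a median of -0.03, and 0 were called.

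Among 9 suffixed ORFs of ER translocation and the early secretory pathway the median log2 fold change was -0.10. *SBH1* and *SBH2* encode related small subunits of the Sec61 and Ssh1 translocons. *SBH1* was at 660.8 and 755.7 RPKM in *dbp1Δ* cells, against 675.5 and 768.6 RPKM in wild-type cells. *SBH2* was at 260.4 and 289.6 RPKM in *dbp1Δ* cells, against 260.9 and 270.9 RPKM in wild-type cells. *SBH1* was above *SBH2* in every library, and neither separated the genotypes. *OST5*, of the oligosaccharyltransferase, was at 178.8 and 209.2 RPKM in *dbp1Δ* cells, against 225.5 and 214.3 RPKM in wild-type cells, apart but with a fold change of only -0.18 ± 0.16 SE. *TSC3*, which stimulates sphingolipid synthesis, was at 294.5 and 268.2 RPKM in *dbp1Δ* cells, against 250.8 and 266.2 RPKM in wild-type cells, with the nearest values of the genotypes almost equal. *SPC1* of the signal peptidase, *YSY6*, *YOS1* and the cargo receptor gene *ERP1* had fold changes of -0.20 to 0.00, and *ERI1* is given above. The 21 partner genes had a median of -0.04, and 0 were called.

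Proteolipids and small membrane subunits of proton pumps, together with *SNA2*, made up the last list, with 4 suffixed ORFs and a median log2 fold change of 0.02. *PMP1* and *PMP2* encode nearly identical proteolipids of the plasma membrane proton pump, so reads may be divided between them. *PMP1* was at 227.6 and 191.6 RPKM in *dbp1Δ* cells, against 212.8 and 195.9 RPKM in wild-type cells. *PMP2* was at 117.6 and 64.3 RPKM in *dbp1Δ* cells, against 110.2 and 102.2 RPKM in wild-type cells. *dbp1Δ* replicate 2 alone was low for *PMP2*, with 23 reads against 49 in *dbp1Δ* replicate 1. *VMA9*, a membrane subunit of the vacuolar proton pump, was at 1331 RPKM in both *dbp1Δ* libraries, against 1176 and 1224 RPKM in wild-type cells. Its genotypes did not overlap (log2 fold change 0.15 ± 0.15 SE, limma adjusted p = 1.0). *SNA2*, a small membrane protein gene related to *PMP3* and not a known pump subunit, was at 955.8 and 1101 RPKM in *dbp1Δ* cells and 1089 and 965.8 RPKM in wild-type cells, and overlapped fully. The 8 partner genes had a median of -0.06, and 0 were called.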

How the data were processed

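Per the paper's methods, reads were mapped to the SK1 genome and reads per ORF converted to RPKM. The submitters' processing notes name Bowtie2, and its version is not given in the sources used here. The authors deposited footprint RPKM values per library, neither pooled nor scaled between libraries. Members were taken by systematic name. They, the role lists and the rule for named ORFs were chosen with earlier results of these data known.

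Genotype was the only term of a two-sided limma fit (version 3.58.1, R 4.3.3, eBayes with a trend) to log2(RPKM + 0.5), with Benjamini-Hochberg adjustment over the 5338 ORFs whose mean reached 1 RPKM. This scale understates changes of low ORFs. Whole reads were recovered with R64 lengths less 60 nt (90.3% of values within 0.1 of a whole number). For YPL119C-A, whose reads were not whole at that length, a length 3 nt shorter was used. Lengths 3 nt shorter or longer were tried for suffixed ORFs alone. Exact 95% Clopper-Pearson intervals and the 3-read floor cover counting error only. The fit and the recovery of reads were tested on simulated data. Other calculations used Python 3.11.15, pandas 2.3.3 and scipy 1.17.1.

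ORFs were named by rule: YPL119C-A, the 5 highest means, up to 5 rises and 5 falls with genotypes apart, the 3 widest replicate gaps per genotype with means of 10 RPKM or more, and the role lists. Names, lengths and neighbors came from R64, whose assembly differs from SK1, so no coordinates are given. Alternatives were other pseudocounts, filters and scalings, eBayes without a trend, a replicate block, limma-voom and leaving out each library.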

Additional observations from a re-analysis of the deposited data

How the results depend on the processing

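The number of suffixed ORFs past an adjusted p of 0.05, 1 in limma, was 5 with the replicate number as a block, 4 with the block and median centring, 0 with limma-voom on recovered reads, and 0 to 20 when each library was left out (0 without *dbp1Δ* replicate 1, 20 without *dbp1Δ* replicate 2). It stayed at 1 with the other pseudocounts, filters and scalings and without the eBayes trend. The 5 blocked calls were YPL119C-A, YBR121C-A, YMR173W-A (higher), *ERI1* and *LSO1* (lower), and 3 of the 5 were also among the 20. Deviations of equally numbered libraries had a correlation of -0.135 over all tested ORFs and -0.098 over the suffixed ORFs. These correlations across ORFs cannot show whether equally numbered libraries were processed together. The number of suffixed ORFs with genotype means 2-fold or more apart, 6, ranged from 3 (without *dbp1Δ* replicate 1) to 14 (without *dbp1Δ* replicate 2). The number 2-fold or more apart between the wild-type libraries, 3, was 0 among those averaging 10 RPKM or more. YPR169W-A, at -0.04, changed sign without *dbp1Δ* replicate 2, at a log2 fold change of 0.55 (adjusted p = 0.037 from a fit in which the *dbp1Δ* spread does not enter), and ranged from -0.62 to 0.55 when each library was left out. The median log2 fold change of the suffixed ORFs stayed between -0.036 and 0.004. Limma-voom was run on the 137 suffixed ORFs with an annotated length, on estimated reads rounded to whole numbers, which were whole within 0.1 before rounding in 111 of them. The causes were not tested. Depth limits the ORFs with under about 30 reads, in which replicates differed most.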
